A study of Homo sapiens with 6 samples.

Results

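The 57 genes described here encode proteins that repair DNA damage or signal it, and they were taken from a list of symbols. All 57 symbols were found among the 56638 gene rows of each count table. They were grouped by repair route into 11 genes of nucleotide excision repair, 10 of base excision and single-strand break repair, 1 of direct reversal, 4 of mismatch repair, 7 of end joining, 10 of homologous recombination, 3 of damage signalling, 9 of the Fanconi anaemia route for interstrand crosslinks and 2 of translesion synthesis. RNA was sequenced from SW480, an established human colorectal cancer line, in 3 Control libraries of untreated cells and 3 TGFB1 libraries of cells given transforming growth factor beta 1 (TGF-β1) at 10 ng/ml on more than 4 occasions. Both groups were grown in RPMI-1640 with fetal bovine serum and are labelled as passages 16 to 19. The labels give neither the length of exposure nor the interval between the last dose and harvest, and the groups model 1 cell line. The labels do not say whether a group's 3 libraries came from separate cultures, so the p-values measure the spread between these libraries, which may be technical.

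DNA lesions are handled by routes that divide the work by the kind of damage. Nucleotide excision repair cuts out bulky lesions such as those made by ultraviolet light, base excision repair removes small damaged or wrong bases, and mismatch repair corrects errors of replication. Double-strand breaks are rejoined directly by end joining or copied from a sister chromatid by homologous recombination, and the Fanconi proteins unhook crosslinked strands during replication. Translesion polymerases copy past damage that is still in place, and the kinases ATM and ATR signal damage to the cell cycle. In colorectal tissue mismatch repair has a particular standing, since its inherited loss underlies Lynch syndrome, and inherited loss of the base excision glycosylase MUTYH causes colorectal polyposis.

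Gene-assigned reads per library numbered 13012898 to 16005222, and the biological coefficient of variation over all genes was 0.0470. No 2 libraries of a group were alike within sampling noise, with a chi-square per degree of freedom of 1.76 to 4.34. Levels are given as CPM, the usual counts-per-library unit, after trimmed-mean (TMM) scaling. The TGF-β1 target SMAD7 went from 18.2 ± 1.70 CPM (SD, n = 3) in Control to 43.5 ± 4.19 in TGFB1, PMEPA1 from 25.1 ± 2.32 to 349 ± 8.13 and TGFBI from 14.6 ± 2.05 to 677 ± 16.4, in the direction of the labels. Of the epithelial keratin genes KRT8 (1711 ± 1.33 and 1678 ± 20.4 CPM) and KRT18 (183 ± 7.36 and 125 ± 2.59) were abundant. KRT19 was nearly absent, with 1 count over the Control and 6 over the TGFB1 libraries. EPCAM was low at 6.94 ± 0.543 and 4.06 ± 1.00 CPM, as was CDH1 at 1.09 ± 0.0707 and 0.271 ± 0.176. The intestinal marker CDX2 had 0 counts in all 6 libraries. Fibroblast markers summed to 91.0 to 95.0 CPM in Control and 120.1 to 136.0 in TGFB1. Most of that sum was COL1A1 (81.3 ± 2.64 against 105 ± 5.40 CPM). All 5 fibroblast markers tested, of 8, were higher in TGFB1: besides COL1A1 they were FAP (0.0223 ± 0.0386 against 1.14 ± 0.220 CPM), DCN (3.37 ± 0.0921 against 7.54 ± 0.920), PDGFRB (7.99 ± 0.373 against 14.8 ± 2.01) and THY1 (0.538 ± 0.284 against 1.16 ± 0.286). Of the untested ones COL1A2 and PDGFRA had 0 counts in every Control library and no more than 2 in all TGFB1 libraries together, and LUM had 9 and 3 counts per group, while the leukocyte gene PTPRC had 0 in all 6. Of the epithelial markers 3 of 4 tested were lower, endothelial markers summed to 2.64 to 3.27 CPM in Control and 0.377 to 0.883 in TGFB1, and immune markers to 1.87 to 2.06 and 1.51 to 2.99. The single intestinal marker tested, LGR5, was higher, at 0.300 ± 0.0922 against 1.03 ± 0.128 CPM. The part of these marker changes in the results below was not tested, and in bulk RNA fewer cells of a type and less RNA per cell cannot be told apart.

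Across the repair genes as a whole TGF-β1 treatment went with small shifts in both directions. All 57 genes passed the filter on low counts, with at least 48 reads in every library. By edgeR's quasi-likelihood test at a Benjamini-Hochberg adjusted p under 0.05 over all 14897 tested genes, 10 members were higher in TGFB1, 17 were lower and 30 did not pass. The 27 called members made up 47.4% of the 57, beside 47.3% of all tested genes. Members called higher made up 17.5% beside 23.4% of all genes, and members called lower 29.8% beside 23.9%. The share of members called was thus near the background. With scaling by library size alone 15 members were higher and 9 lower, in a setting that moved the median of all genes to 0.057 and its calls to 28.3% higher and 19.3% lower. The members' median less that of all genes was -0.085 under both scalings, but a change of scaling shifts all genes nearly alike and could hardly move it. When 1 library was left out, this difference ran from -0.0911 (without TGFB1 2) to -0.0534 (without TGFB1 3).

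The changes were small in size. The members had a median absolute log2 fold change of 0.155, beside 0.236 over all tested genes. None of the 57 differed by more than 2-fold, beside 9.53% of all genes, and 2 of 57 (3.51%), FANCF and POLH, differed by more than 1.5-fold, beside 20.2%. FANCF, the member of lowest mean CPM, stood at percentile 26.2 of the tested genes by level. The members and all genes were thus not matched for level in these comparisons of size. The signed median was -0.08, beside 0.00033 over all genes, and the members ran from -0.64 for POLH to 0.83 for FANCF. In 34 of the 57 genes (59.6%) the 3 TGFB1 libraries did not overlap the 3 Control libraries, 15 lying above and 19 below, beside 54.2% of all genes. A number in parentheses after another setting or a left-out library is the adjusted p found there. The 13 calls that held under all 14 alternative settings were DDB2, UNG, XRCC4, MRE11A and FANCF among the higher genes and ERCC6, DDB1, PMS2, TP53BP1, POLQ, CHEK2, FANCD2 and POLH among the lower.

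**Figure D1:**
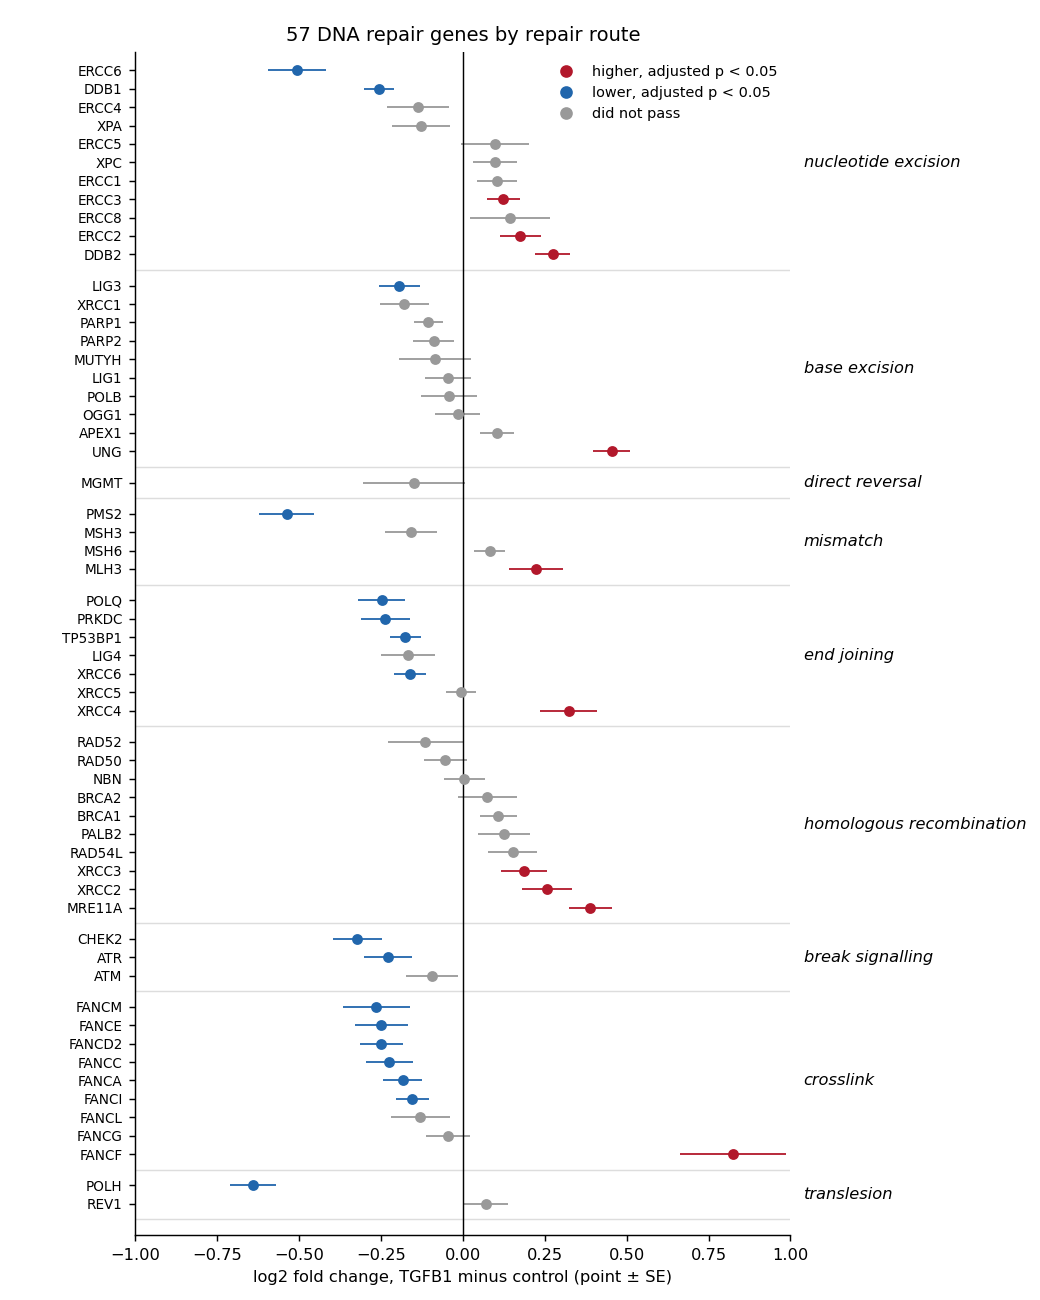
Fitted log2 fold change (TGFB1 minus Control, point ± SE, n = 3 libraries a group) of all 57 repair genes, grouped by route; red points are higher and blue points lower at an edgeR adjusted p under 0.05, grey points did not pass. The points run from -0.64 for POLH to 0.83 for FANCF. With library-size scaling, which moves the median of all genes by 0.057, 15 are higher and 9 lower.

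**Figure D2:**
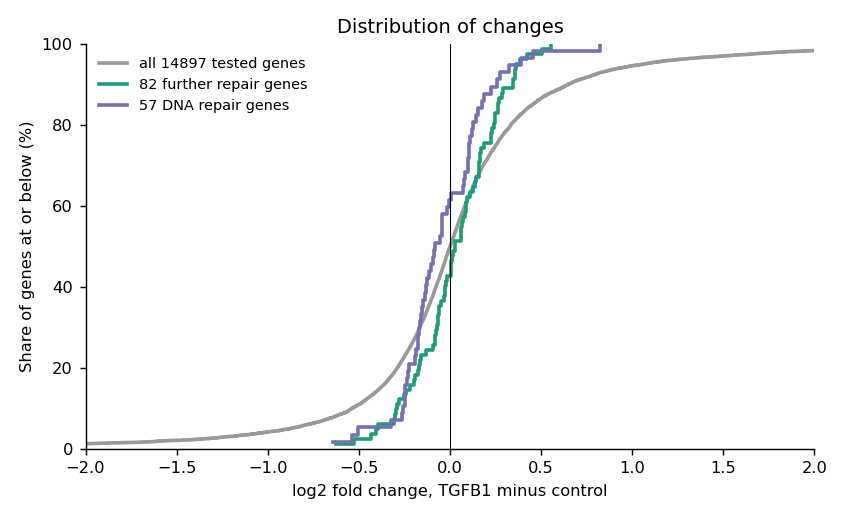
Cumulative share of genes in percent (vertical axis) by signed log2 fold change, TGFB1 minus Control (horizontal axis, cut at -2 and 2), for the 57 repair genes, 82 further repair genes and all 14897 tested genes. The 57 genes lie between -0.64 and 0.83, inside the wider spread of all genes.

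In nucleotide excision repair the damage sensor DDB2 and the helicases ERCC2 and ERCC3 were higher in TGFB1, and DDB1, the partner of DDB2, and the transcription-coupled repair factor ERCC6 (CSB) were lower. The other 6 genes did not pass, and the median log2 fold change of the 11 genes was 0.10. Called in either direction were 45.5% of the 11, beside 47.3% of all tested genes. DDB2 finds ultraviolet photoproducts in chromatin. Its level was 80.7, 84.7 and 82.3 CPM in Control and 99.0, 103 and 97.4 in TGFB1, with no overlap. That is 82.5 ± 2.00 (SD, n = 3) against 99.8 ± 2.79, 1.21-fold higher (log2 fold change 0.27 ± 0.054 SE, edgeR adjusted p 0.000117).

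DDB1 is the adaptor that ties DDB2 to the CUL4 ubiquitin ligase. It was the most abundant gene of the route per transcript length, at 121 CPM per kilobase of its longest transcript in Control and 101 in TGFB1. Libraries read 550.2, 544 and 540.1 CPM in Control and 456, 468 and 445 in TGFB1. The TGFB1 libraries all lay below the Control ones, 456 ± 11.3 against 545 ± 5.13 CPM (SD, n = 3) or 1.19-fold lower (log2 fold change -0.26 ± 0.045 SE, edgeR adjusted p 2.36e-05). DDB2 and DDB1, which work as a pair, thus moved in opposite directions.

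ERCC6 is recruited where RNA polymerase stalls at a lesion. It read 24.2, 22.8 and 25.7 CPM in Control and 17.4, 18.4 and 15.2 in TGFB1. Every TGFB1 library was below every Control library, a 1.42-fold lower mean (24.2 ± 1.44 against 17.01 ± 1.61 CPM, SD, n = 3; log2 fold change -0.51 ± 0.089 SE, edgeR adjusted p 2.62e-05). Its partner ERCC8 (CSA) was at 8.03 ± 0.502 and 8.91 ± 0.409 CPM and did not pass (log2 fold change 0.15, edgeR adjusted p 0.349).

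The TFIIH helicases, which open the DNA around the lesion, shifted upward by little. ERCC2 (XPD) was at 52.9, 55.7 and 55.7 CPM in Control and 65.0, 62.5 and 58.2 in TGFB1, 1.13-fold higher without overlap (log2 fold change 0.18 ± 0.062 SE, edgeR adjusted p 0.0211). When Control 1, Control 3, TGFB1 1 or TGFB1 2 was left out, the edgeR adjusted p was 0.0579 to 0.129 and the call ended. ERCC3 (XPB) was 1.09-fold higher (log2 fold change 0.12 ± 0.051 SE, edgeR adjusted p 0.0465), a call that ended under 10 of the 14 alternatives and without each library other than TGFB1 3 (edgeR adjusted p 0.0519 to 0.221). The recognition factor XPC (0.10), the verifying factor XPA (-0.13), the nuclease pair ERCC1 (0.11) and ERCC4 (-0.14) and the nuclease ERCC5 (0.10, log2 fold changes throughout) did not pass, at edgeR adjusted p of 0.161 to 0.465; ERCC1 passed as higher with scaling by library size alone (0.0277). ERCC5 shares 63.3% of its exon bases with other annotated genes, including a readthrough gene, and reads there may be missing from its count.

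Among 15 tested companion genes of the route, those of the same complexes that are not members, 5 were higher and 4 lower. The scaffold CUL4A, which carries DDB1, read 562, 539 and 536 CPM in Control and 344, 350.0 and 366 in TGFB1, 1.54-fold lower (log2 fold change -0.63 ± 0.046 SE, edgeR adjusted p 3e-12). The TFIIH subunit GTF2H2 was 1.33-fold lower (log2 fold change -0.41 ± 0.140 SE, edgeR adjusted p 0.0177), but that call ended without TGFB1 1 (0.101) and by DESeq2 (0.0637), and the gene has close copies that could share its reads. Chosen after their values were seen, the TFIIH subunits CDK7 (0.34), GTF2H3 (0.24) and MNAT1 (0.25) were higher (log2 fold changes). GTF2H1 (-0.17) was lower, as was the CUL4A paralogue CUL4B (-0.22). The TFIIH subunits CCNH (0.01, edgeR adjusted p 0.917) and GTF2H5 (0.07, edgeR adjusted p 0.664) did not pass, and GTF2H4 was not tested. The call of MNAT1 ended by DESeq2 (0.0835), with no filter (0.0595) and without Control 2, Control 3, TGFB1 1 or TGFB1 2 (0.0577 to 0.0919). That of GTF2H1 ended by DESeq2 (0.065) and without Control 1, TGFB1 1 or TGFB1 2 (0.11 to 0.159), and with scaling by library size alone its log2 fold change was -0.11 (0.161).

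**Figure D3:**
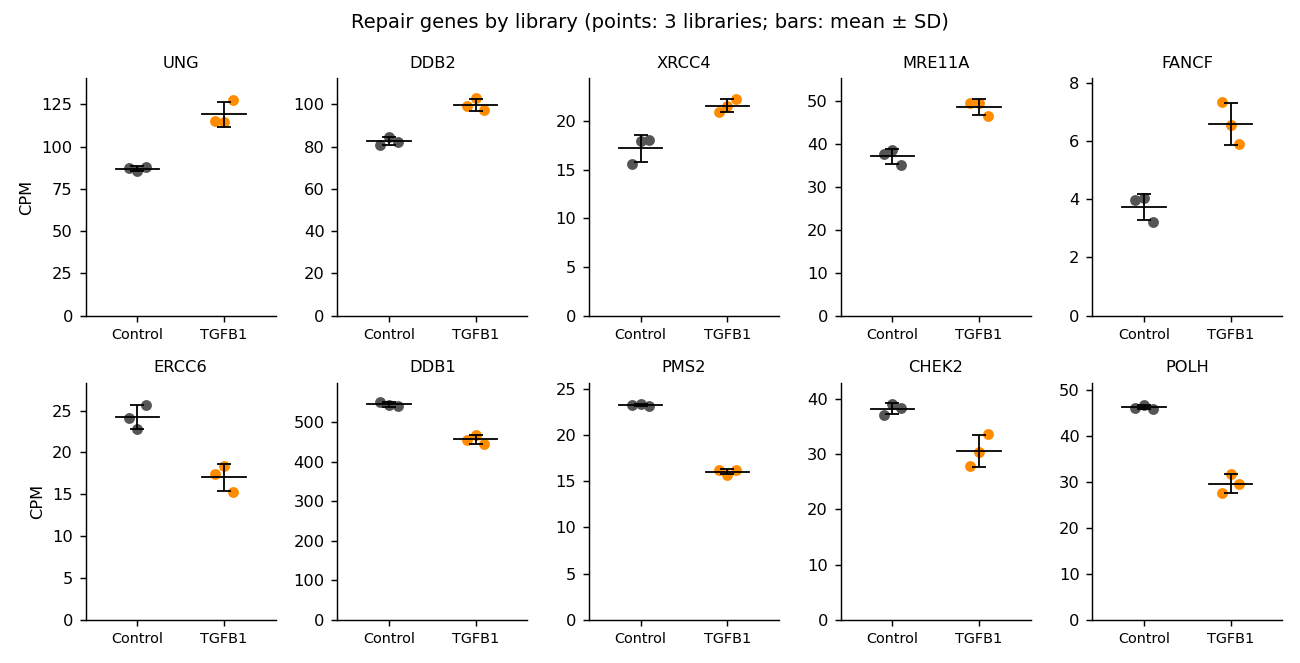
CPM in each library for the 5 members called higher (top row) and 5 of the 8 called lower (bottom row) under every alternative setting; points are the 3 libraries of a group, bars are mean ± SD, and each axis starts at 0. In every panel the 3 TGFB1 libraries lie on 1 side of the 3 Control libraries, from DDB1 at about 545 against 456 CPM to FANCF at 3.73 against 6.59.

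In base excision and single-strand break repair UNG was higher, LIG3 was lower and the other 8 of the 10 genes did not pass. Called in either direction were 20% of the 10, beside 47.3% of all tested genes. UNG, the glycosylase that removes uracil from DNA, was 87.2, 85.4 and 88.1 CPM in Control and 115, 115 and 128 in TGFB1. Each TGFB1 library was above each Control library, 119 ± 7.51 against 86.9 ± 1.36 CPM (SD, n = 3), 1.37-fold higher (log2 fold change 0.45 ± 0.055 SE, edgeR adjusted p 7.7e-08). LIG3, the ligase that seals nicks with XRCC1, was 54.3, 57.4 and 54.7 CPM in Control and 48.3, 49.9 and 47.2 in TGFB1. It was 1.14-fold lower without overlap (log2 fold change -0.19 ± 0.062 SE, edgeR adjusted p 0.0113), which scaling by library size alone brought to 0.0703. Exon bases shared with other genes make up 30.5% of LIG3.

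PARP1, the poly(ADP-ribose) polymerase that marks strand breaks, was the most abundant gene of the route per length, at 161 CPM per kilobase in Control and 149 in TGFB1. It read 642, 641 and 625 CPM in Control and 602, 581 and 590.2 in TGFB1, so that the groups did not overlap. The log2 fold change was -0.11 ± 0.044 (SE), with an edgeR adjusted p of 0.0512, just above the threshold; DESeq2 gave 0.0464, limma-voom 0.0351 and the fit without TGFB1 3 0.0423. XRCC1, the scaffold of single-strand break repair, was 36.7, 46.0 and 43.7 CPM in Control and 38.3, 37.0 and 36.7 in TGFB1, with overlap. Its log2 fold change of -0.18 did not pass (edgeR adjusted p 0.053), and without Control 1, the lowest of its Control libraries, it was 0.00307.

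Genes for the cutting and filling steps did not pass. The endonuclease APEX1, second in the route by level per length, was at 213 ± 12.6 CPM in Control and 229 ± 9.78 in TGFB1 (log2 fold change 0.10, edgeR adjusted p 0.0979), and passed as higher under library-size scaling (0.00905) or without Control 2 (0.0431). The gap-filling polymerase POLB (-0.04), the replicative ligase LIG1 (-0.05), PARP2 (-0.09) and the glycosylases OGG1 (-0.02) and MUTYH (-0.08), which serve the repair of oxidised guanine, had edgeR adjusted p of 0.25 to 0.874. MUTYH was at 12.0 ± 0.923 CPM in Control and 11.3 ± 0.720 in TGFB1. Of 15 companions 3 were higher and 2 lower. Among glycosylases for oxidised bases NEIL2 was 1.47-fold higher (11.9 ± 1.16 against 17.5 ± 1.48 CPM, log2 fold change 0.56 ± 0.103 SE, edgeR adjusted p 5.16e-05) and NEIL3 1.31-fold lower (10.9 ± 0.821 against 8.36 ± 0.846 CPM, log2 fold change -0.39 ± 0.120 SE, edgeR adjusted p 0.0079); the call of NEIL3 ended without Control 3 (0.0532) or TGFB1 2 (0.0578).

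MGMT, which reverses alkylation of guanine directly and is often silenced in colorectal tumours, was detected at 7.27, 7.98 and 7.68 CPM in Control and 5.98, 5.68 and 9.28 in TGFB1. TGFB1 3 was the highest of the 6 libraries and the other 2 TGFB1 libraries were the lowest, and the log2 fold change of -0.15 ± 0.156 (SE) did not pass (edgeR adjusted p 0.463). Without TGFB1 3 it was -0.39 with an edgeR adjusted p of 0.0316. Of 2 companion genes the dioxygenase ALKBH2, which also reverses alkyl damage, was 1.34-fold higher (26.9 ± 2.39 against 36.3 ± 1.79 CPM, log2 fold change 0.43 ± 0.077 SE, edgeR adjusted p 3.57e-05), with no overlap.

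In mismatch repair PMS2 was lower, MLH3 higher, and the recognition subunits MSH3 and MSH6 did not pass. Called in either direction were 50% of the 4, beside 47.3% of all tested genes. PMS2 carries the endonuclease activity of the main MutL heterodimer. It had 23.3, 23.4 and 23.1 CPM in Control and 16.2, 15.7 and 16.2 in TGFB1. The libraries of each group lay close together, at 23.3 ± 0.141 and 16.0 ± 0.286 CPM (SD, n = 3), a 1.45-fold lower level (log2 fold change -0.54 ± 0.084 SE, edgeR adjusted p 4.54e-06). PMS2 has many pseudogene copies that could take or lose its reads. The transcribed copy PMS2CL was at 9.25 CPM in Control and 8.48 in TGFB1 and did not pass (log2 fold change -0.13, edgeR adjusted p 0.41), nor did the other 4 copies tested.

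MLH3, an alternative MutL subunit, was 24.8, 20.8 and 21.6 CPM in Control and 26.7, 25.1 and 26.8 in TGFB1. The groups did not overlap, and the level was 1.17-fold higher (log2 fold change 0.22 ± 0.083 SE, edgeR adjusted p 0.0273). The call ended by DESeq2 (0.0719) and on leaving out Control 2, Control 3, TGFB1 1 or TGFB1 3 (0.061 to 0.147 by edgeR). MSH6, which recognises single-base mismatches, was the most abundant of the 4 per length, at 22.0 and 23.3 CPM per kilobase. Its libraries read 166, 167 and 159 CPM in Control and 173, 170.0 and 178 in TGFB1 (log2 fold change 0.08 ± 0.048 SE, edgeR adjusted p 0.17, and 0.0173 with scaling by library size alone). MSH3, which recognises larger loops, was at 34.6 ± 2.02 and 30.9 ± 3.22 CPM (log2 fold change -0.16, edgeR adjusted p 0.101, and 0.0217 without TGFB1 2). Among 3 tested companions the exonuclease EXO1 was 1.24-fold lower (112 ± 4.84 against 90.9 ± 5.84 CPM, log2 fold change -0.31 ± 0.057 SE, edgeR adjusted p 5.53e-05). PMS1 was 1.22-fold higher (10.6 ± 0.545 against 12.9 ± 0.500 CPM, edgeR adjusted p 0.0246), a call that ended by DESeq2 (0.0779) and without any library other than Control 1 or TGFB1 3 (0.0546 to 0.108).

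In end joining 4 of 7 genes were lower, 57.1% beside 23.9% of all tested genes, and 1, XRCC4, was higher. Break ends are first held by the Ku dimer of XRCC5 (Ku80) and XRCC6 (Ku70), which recruits the kinase DNA-PKcs, encoded by PRKDC. XRCC6 was the most abundant repair gene of all 57 per length, at 223 CPM per kilobase in Control and 199.5 in TGFB1. It read 608, 617 and 589 CPM in Control and 536, 507 and 578 in TGFB1, without overlap and 1.12-fold lower (log2 fold change -0.16 ± 0.049 SE, edgeR adjusted p 0.00752). The value was -0.11 (0.0703) with scaling by library size alone, and the call also ended without TGFB1 2 (0.0742). XRCC5 was at 455 ± 8.10 CPM in Control and 453 ± 13.9 in TGFB1 (log2 fold change -0.01, edgeR adjusted p 0.928).

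PRKDC read 979, 792 and 860.1 CPM in Control and 755, 804 and 673 in TGFB1, so that TGFB1 2 lay above Control 2. The mean was 1.18-fold lower (877 ± 94.6 against 744 ± 66.6 CPM, SD, n = 3; log2 fold change -0.24 ± 0.075 SE, edgeR adjusted p 0.0182). The call ended without TGFB1 3 (0.0813), by DESeq2 (0.0948) and with scaling by library size alone (0.106), and without Control 1 the log2 fold change was -0.16 (0.037).

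XRCC4, the partner of LIG4 in the sealing step, was 15.6, 18.0 and 18.1 CPM in Control and 21.0, 21.6 and 22.3 in TGFB1. All 3 TGFB1 libraries were higher, 21.6 ± 0.634 against 17.2 ± 1.38 CPM (SD, n = 3) or 1.25-fold (log2 fold change 0.32 ± 0.088 SE, edgeR adjusted p 0.00316). LIG4 itself was at 24.0 ± 1.21 and 21.4 ± 1.33 CPM, with a log2 fold change of -0.17 that did not pass (edgeR adjusted p 0.0981, and 0.0449 without TGFB1 3).

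TP53BP1 (53BP1), which shields break ends from resection, was 189.6, 179.6 and 182 CPM in Control and 166, 163 and 159 in TGFB1. It was 1.13-fold lower without overlap (log2 fold change -0.17 ± 0.048 SE, edgeR adjusted p 0.00337), though 28.7% of its exon bases are shared with the neighbouring TUBGCP4 on the opposite strand. POLQ, the polymerase of microhomology-mediated end joining, was 40.5, 41.2 and 45.1 CPM in Control and 35.7, 37.8 and 33.1 in TGFB1, again without overlap and 1.19-fold lower (log2 fold change -0.25 ± 0.071 SE, edgeR adjusted p 0.00497). Both calls held under all 14 alternatives. Of 8 tested companions 2 were higher and 3 lower. The ubiquitin ligase RNF8, which prepares chromatin at breaks for 53BP1, was 1.42-fold higher (25.4 ± 1.68 against 36.0 ± 0.978 CPM, log2 fold change 0.51 ± 0.074 SE, edgeR adjusted p 1.65e-06). The nuclease Artemis, DCLRE1C, was 1.21-fold higher (10.5 ± 0.532 against 12.7 ± 0.500 CPM, edgeR adjusted p 0.0375), a call that ended under 8 of the 14 alternatives, among them each left-out library other than Control 1 (0.0563 to 0.15).

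In homologous recombination 3 of 10 genes were higher, none was lower and 7 did not pass. The shares of 30% higher and 0% lower stand beside 23.4% and 23.9% of all tested genes, a difference that was not tested. At an unadjusted p under 0.05 the number lower was also 0, and by DESeq2 and limma-voom it was 0. The median log2 fold change was 0.12. MRE11A, now named MRE11, is the nuclease that starts end resection in a complex with RAD50 and NBN. It read 37.6, 38.4 and 35.1 CPM in Control and 49.5, 49.6 and 46.3 in TGFB1. The TGFB1 libraries were all higher, 48.5 ± 1.85 against 37.1 ± 1.72 CPM (SD, n = 3), a 1.31-fold difference (log2 fold change 0.39 ± 0.067 SE, edgeR adjusted p 1.73e-05). Neither partner passed. NBN, the most abundant of the 10 per length at 12.3 CPM per kilobase in both groups, read 59.3, 58.6 and 62.8 CPM in Control and 60.9, 57.4 and 63.2 in TGFB1 (log2 fold change 0.01, edgeR adjusted p 0.954). RAD50 was at 42.8 ± 1.96 and 41.2 ± 0.228 CPM (log2 fold change -0.05, edgeR adjusted p 0.532), with 79.7% of its exon bases shared with other annotated genes.

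XRCC2 and XRCC3 belong to the recombinase paralogues that help build the filament on resected DNA. XRCC2 was 39.1, 36.4 and 38.5 CPM in Control and 43.6, 51.2 and 40.9 in TGFB1, 1.19-fold higher without overlap (log2 fold change 0.26 ± 0.075 SE, edgeR adjusted p 0.00608). TGFB1 2 was its highest library, and without it the log2 fold change was 0.15 and the call ended (0.111). XRCC3 was 31.2, 31.0 and 32.5 CPM in Control and 36.1, 37.9 and 33.7 in TGFB1, 1.14-fold higher (log2 fold change 0.19 ± 0.071 SE, edgeR adjusted p 0.0319). That call ended by DESeq2 (0.0792), with no filter (0.0602), with the replicate block (0.0544) and on leaving out each library other than TGFB1 3 (0.0606 to 0.157), and 76.7% of the exon bases of XRCC3 are shared with KLC1 on the opposite strand.

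The mediators of strand invasion did not pass. BRCA1 was at 72.1 ± 2.37 CPM in Control and 77.7 ± 2.27 in TGFB1 (log2 fold change 0.11, edgeR adjusted p 0.123). BRCA2 (0.07), its partner PALB2 (0.13), the translocase RAD54L (0.15) and the annealing protein RAD52 (-0.11) had edgeR adjusted p of 0.0983 to 0.53. With scaling by library size alone BRCA1 (0.0188) and RAD54L (0.0247) passed as higher, as RAD54L did without TGFB1 3 (0.0323). Of 13 tested companions 2 were higher and 3 lower. The helicase BLM was 1.28-fold higher (46.2 ± 1.17 against 59.1 ± 3.84 CPM, log2 fold change 0.36 ± 0.065 SE, edgeR adjusted p 3.88e-05) and the resection nuclease DNA2 1.23-fold lower (57.8 ± 2.47 against 46.8 ± 1.80 CPM, log2 fold change -0.30 ± 0.063 SE, edgeR adjusted p 0.000229).

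Among the signalling kinases CHEK2 and ATR were lower and ATM did not pass. CHEK2, the checkpoint kinase downstream of ATM, was 37.2, 39.1 and 38.3 CPM in Control and 27.9, 30.4 and 33.6 in TGFB1. Every TGFB1 library was lower, 30.6 ± 2.87 against 38.2 ± 0.998 CPM (SD, n = 3), 1.25-fold (log2 fold change -0.32 ± 0.074 SE, edgeR adjusted p 0.000663); it was also the most abundant of the 3 per length, at 14.9 and 12.0 CPM per kilobase. ATR, the kinase of stalled forks, was 87.5, 71.6 and 69.6 CPM in Control and 60.7, 67.9 and 66.2 in TGFB1, 1.17-fold lower (log2 fold change -0.23 ± 0.073 SE, edgeR adjusted p 0.0124).

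Control 1 was the highest Control library of ATR, as it was of ATM, PRKDC and FANCM. Without it the log2 fold change of ATR was -0.13 and the call ended (0.134), as it did without TGFB1 1 (0.0869) and with scaling by library size alone (0.072). ATM read 49.6, 38.3 and 43.6 CPM in Control and 39.6, 44.1 and 39.0 in TGFB1 (log2 fold change -0.10, edgeR adjusted p 0.345, and 0.0458 without Control 2, its lowest Control library). Of 10 companions 1 was higher, the histone H2AFX (H2AX), which ATM phosphorylates at breaks, 1.20-fold (106 ± 8.28 against 127 ± 4.14 CPM, edgeR adjusted p 0.000343). The other call was lower, HUS1 of the checkpoint clamp, 1.22-fold (24.7 ± 0.960 against 20.3 ± 1.22 CPM, edgeR adjusted p 0.00553).

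Under TMM scaling the Fanconi genes held the most calls in 1 direction among the routes. Of the 9 members 6 were lower in TGFB1, FANCA, FANCC, FANCE, FANCM, FANCD2 and FANCI, while FANCF was higher and FANCG and FANCL did not pass. The median log2 fold change was -0.18. Members called lower made up 66.7% of the route, beside 23.9% of all tested genes. That share was 57.1% in end joining, 0% in homologous recombination and 66.7% in damage signalling. Over the 20 genes of these routes 4 were higher and 6 lower, so that 30% were lower and 50% called in either direction. Of the Fanconi members 77.8% were called in either direction, beside 47.3% of all tested genes. The routes differ in size, and these shares were not tested. With scaling by library size alone, under which all genes shift upward, 2 of the 6, FANCD2 and FANCE, were called lower, and without TGFB1 2 the number was 3.

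FANCM recognises the stalled fork and docks the core complex, a ubiquitin ligase made of FANCA, FANCC, FANCE, FANCF, FANCG, FANCL and others. FANCM was 20.3, 15.5 and 17.3 CPM in Control and 15.4, 14.1 and 14.6 in TGFB1, without overlap by a small margin. It was 1.20-fold lower (log2 fold change -0.26 ± 0.102 SE, edgeR adjusted p 0.0337), but without Control 1 the value was -0.16 (0.232). The call also ended without Control 3 (0.0597), TGFB1 2 (0.0972) or TGFB1 3 (0.0586), by DESeq2 (0.0905) and with scaling by library size alone (0.0998).

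FANCE, the subunit that binds FANCD2, was 25.0, 26.9 and 26.0 CPM in Control and 23.3, 20.7 and 21.6 in TGFB1, 1.19-fold lower without overlap (log2 fold change -0.25 ± 0.080 SE, edgeR adjusted p 0.0117), and 0.0619 without TGFB1 2. FANCC was 1.17-fold lower (36.0 ± 1.93 against 30.8 ± 1.37 CPM, edgeR adjusted p 0.0113), with 0.0565 without Control 2, 0.0637 without TGFB1 2 and 0.0556 with scaling by library size alone. FANCA was 1.14-fold lower (70.3 ± 1.20 against 61.8 ± 3.83 CPM, edgeR adjusted p 0.0137), with 0.0563 without TGFB1 3 and 0.0876 with scaling by library size alone, and 23.6% of its exon bases are shared with ZNF276. The ligase subunit FANCL (-0.13) and the scaffold FANCG (-0.05) had edgeR adjusted p of 0.248 and 0.609.

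FANCF, the adaptor that joins core subunits to FANCM, went the other way. It was the least abundant of the 57 genes per length in Control, at 1.26 CPM per kilobase, with 3.97, 4.02 and 3.21 CPM in Control and 7.34, 6.54 and 5.89 in TGFB1, or 160 counts over the 3 Control libraries. Every TGFB1 library was above every Control library, 6.59 ± 0.727 against 3.73 ± 0.457 CPM (SD, n = 3), 1.77-fold higher (log2 fold change 0.83 ± 0.161 SE, edgeR adjusted p 0.000101), the widest difference of the 57 and 1 that held under all 14 alternatives. Some 11.3% of its exon bases are shared with GAS2 on the opposite strand.

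FANCD2 and FANCI form the clamp that the core complex ubiquitinates. FANCD2 was 59.1, 53.5 and 55.6 CPM in Control and 48.9, 44.0 and 48.8 in TGFB1, 1.19-fold lower without overlap (log2 fold change -0.25 ± 0.066 SE, edgeR adjusted p 0.0025), under all 14 alternatives. FANCI, the most abundant Fanconi gene per length at 31.0 CPM per kilobase in Control and 27.8 in TGFB1, was 152, 149.6 and 140.0 CPM in Control and 129, 135 and 132 in TGFB1. It was 1.11-fold lower (log2 fold change -0.15 ± 0.050 SE, edgeR adjusted p 0.0122), with 0.0736 without TGFB1 1, and -0.10 (0.111) with scaling by library size alone.

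Of 10 tested companion genes of the same route 4 were higher and 1 was lower. That is 40% higher and 10% lower, beside 23.4% and 23.9% of all tested genes. FANCB, also a core subunit, was 1.27-fold higher (8.85 ± 1.36 against 11.2 ± 1.06 CPM, log2 fold change 0.35 ± 0.125 SE, edgeR adjusted p 0.0226). Its groups overlapped, and it lost its call by DESeq2 (0.0655) and on leaving out Control 2, Control 3 or TGFB1 2 (0.0998 to 0.13). C19orf40, which encodes FAAP24, the DNA-binding partner of FANCM, was 1.28-fold higher (10.5 ± 0.196 against 13.5 ± 0.913 CPM, log2 fold change 0.36 ± 0.106 SE, edgeR adjusted p 0.00607). The other 3 calls are named after their values were seen. The nuclease scaffold SLX4 was 1.19-fold lower (44.1 ± 0.441 against 37.0 ± 1.85 CPM, log2 fold change -0.25 ± 0.066 SE, edgeR adjusted p 0.00252), under all 14 alternatives. C17orf70, which encodes the core subunit FAAP100, was higher (0.22, edgeR adjusted p 0.00713), and that call ended without Control 3 (0.0718) or TGFB1 2 (0.0513). WDR48, which activates the deubiquitinase of FANCD2, was higher (0.19, edgeR adjusted p 0.0223), with a call that ended by DESeq2 (0.055) and without Control 2 (0.0592), Control 3 (0.146) or TGFB1 2 (0.0565). The companion list had a median of 0.07 on the log2 scale, beside -0.18 for the members; that difference was not tested.

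**Figure D4:**
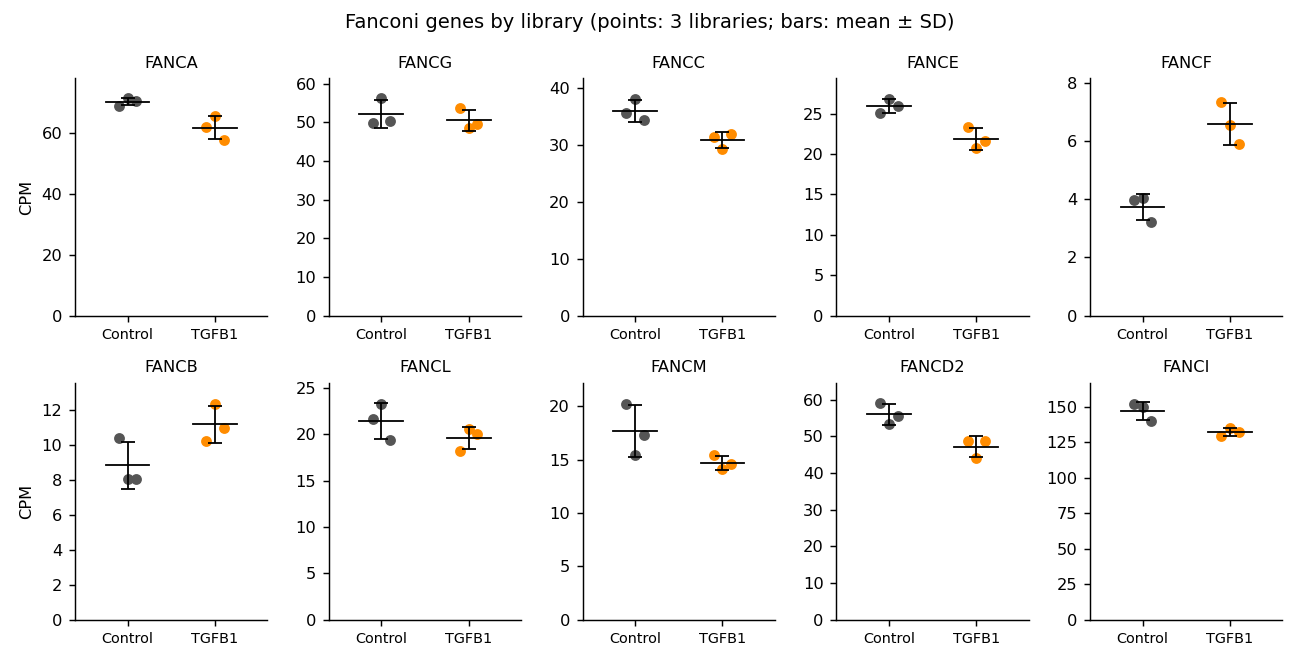
CPM in each library for the 9 Fanconi members and their core-complex partner FANCB; points are the 3 libraries of a group and bars are mean ± SD, with each axis from 0. FANCA, FANCC, FANCE, FANCM, FANCD2 and FANCI are lower in TGFB1 and FANCF and FANCB higher; with scaling by library size alone the calls of FANCA, FANCC, FANCM and FANCI end.

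Promoter sequences were read for the Fanconi genes because several of them were lower together. Windows of 300 bases, 250 before to 50 after a RefSeq start (GRCh38.p14), were at hand for 52 of the 57 members, 72 windows in all, and for 8 of the 9 Fanconi genes. The count tables are on an older build, so the windows are matched by symbol. Words bound by E2F factors, which drive genes of DNA replication (TTTCCCGC, TTTGGCGC, TTTCGCGC or TTTGCCGC on either strand), stood in 12 member windows (16.7%), beside 3.31% of 35116 windows of the same length. The 11 members with such a word were UNG and XRCC2, called higher, PMS2, XRCC6, FANCA, FANCC and FANCD2, called lower, and XPC, LIG1, MSH3 and MSH6, which did not pass. The CCAAT box, also searched on both strands, stood in 43.1% of member windows, beside 34.6%, and the cell-cycle word TTTGAA in 12.5%, beside 15.2%. In these windows no E2F word shared a base with either of the other motifs. A match is a description of letters and not a binding site.

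Shown 5′ to 3′ with the E2F words in capitals are the 3 Fanconi genes that hold one, each on its own line with its place in GRCh38.p14. FANCA lies on the minus strand at chr16:89816598-89816897, FANCC on the minus strand at chr9:95317660-95317959 (a second annotated start holds none) and FANCD2 on the plus strand at chr3:10026187-10026486.
FANCA: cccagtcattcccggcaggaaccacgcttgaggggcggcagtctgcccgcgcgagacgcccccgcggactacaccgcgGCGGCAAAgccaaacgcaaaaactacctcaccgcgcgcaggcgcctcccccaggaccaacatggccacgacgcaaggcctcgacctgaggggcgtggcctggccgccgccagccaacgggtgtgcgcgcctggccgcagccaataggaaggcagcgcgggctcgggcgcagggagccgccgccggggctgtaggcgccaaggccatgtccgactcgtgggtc
FANCC: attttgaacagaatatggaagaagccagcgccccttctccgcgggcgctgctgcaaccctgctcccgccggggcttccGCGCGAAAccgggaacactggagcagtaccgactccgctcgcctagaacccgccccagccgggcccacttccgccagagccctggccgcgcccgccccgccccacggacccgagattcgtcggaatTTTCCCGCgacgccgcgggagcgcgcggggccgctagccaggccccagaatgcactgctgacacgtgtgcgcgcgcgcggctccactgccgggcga
FANCD2: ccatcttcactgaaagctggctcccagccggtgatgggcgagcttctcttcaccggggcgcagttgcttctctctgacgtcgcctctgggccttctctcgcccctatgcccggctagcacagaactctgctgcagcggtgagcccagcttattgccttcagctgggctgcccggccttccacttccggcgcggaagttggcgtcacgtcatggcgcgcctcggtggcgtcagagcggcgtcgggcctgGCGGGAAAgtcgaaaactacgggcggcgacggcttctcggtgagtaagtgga
FANCF, which moved the other way, is shown with its CCAAT boxes in capitals. Its window, on the minus strand at chr11:22625774-22626073, holds none of the E2F words and 2 CCAAT boxes. The E2F words are also absent from FANCE and FANCM, called lower, and from FANCG and FANCL, which did not pass. A CCAAT box also stands in FANCA and FANCM, both called lower, so neither motif divides these genes by direction.
FANCF: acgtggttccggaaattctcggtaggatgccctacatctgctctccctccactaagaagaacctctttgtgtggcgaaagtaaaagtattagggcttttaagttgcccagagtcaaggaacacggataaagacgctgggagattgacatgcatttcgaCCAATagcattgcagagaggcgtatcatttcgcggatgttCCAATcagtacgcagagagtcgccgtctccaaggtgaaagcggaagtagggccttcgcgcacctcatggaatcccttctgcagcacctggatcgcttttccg

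In translesion synthesis POLH was lower and REV1 did not pass. POLH encodes polymerase eta, which copies past ultraviolet photoproducts and is lost in a variant form of xeroderma pigmentosum. It read 46.1, 46.8 and 45.9 CPM in Control and 27.7, 31.7 and 29.6 in TGFB1. The groups were far apart relative to their spread, 46.3 ± 0.476 against 29.7 ± 2.03 CPM (SD, n = 3), and POLH was 1.56-fold lower (log2 fold change -0.64 ± 0.070 SE, edgeR adjusted p 8.88e-09), the lowest adjusted p of the 57. REV1, which recruits the other translesion polymerases, was at 43.8 ± 1.73 CPM in Control and 46.0 ± 2.75 in TGFB1 (log2 fold change 0.07, edgeR adjusted p 0.412). Of 6 companions the catalytic subunit of polymerase zeta, REV3L, was 1.44-fold lower (33.8 ± 2.36 against 23.3 ± 1.86 CPM, log2 fold change -0.53 ± 0.080 SE, edgeR adjusted p 2.85e-06). The ubiquitin ligase RAD18 was 1.13-fold higher (36.7 ± 0.969 against 41.4 ± 1.59 CPM, edgeR adjusted p 0.0352), a call that ended under 8 of the 14 alternatives, among them each left-out library other than TGFB1 3 (0.0548 to 0.158).

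POLH shares its promoter region with XPO5, the exporter of microRNA precursors, which is read from the opposite strand with its start 147 bases from that of POLH. XPO5 was 126, 131 and 131 CPM in Control and 144, 153 and 142 in TGFB1, without overlap. It was 1.13-fold higher (log2 fold change 0.18 ± 0.050 SE, edgeR adjusted p 0.0043) where POLH was lower. The sequence around both starts is printed to show how close they lie. It is the RefSeq window of POLH on the plus strand at chr6:43575935-43576234 (GRCh38.p14), and capitals mark the bases between the 2 starts.
POLH: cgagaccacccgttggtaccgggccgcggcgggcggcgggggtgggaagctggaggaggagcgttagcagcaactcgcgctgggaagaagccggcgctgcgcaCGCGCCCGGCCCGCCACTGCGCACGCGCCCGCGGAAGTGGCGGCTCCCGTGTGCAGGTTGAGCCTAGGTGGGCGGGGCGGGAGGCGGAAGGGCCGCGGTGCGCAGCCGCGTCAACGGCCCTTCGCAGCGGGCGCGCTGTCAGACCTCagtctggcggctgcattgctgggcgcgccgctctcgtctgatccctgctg

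Several other repair genes have a divergent neighbour, whose start lies within 1000 bases on the opposite strand. TP53BP1 was lower, while MAP1A, 314 bases away and known for its role in the neuronal cytoskeleton, was 1.61-fold higher (16.5 ± 1.46 against 26.5 ± 2.84 CPM, log2 fold change 0.69 ± 0.093 SE, edgeR adjusted p 4.07e-07). AIMP2, 166 bases from the lower PMS2, had a log2 fold change of -0.15 that did not pass (edgeR adjusted p 0.0787, and 0.0276 without TGFB1 3). ANKRD49, 140 bases from the higher MRE11A, was at 0.20 (edgeR adjusted p 0.0634, and 0.0184 with scaling by library size alone). Beside the lower CHEK2 and DDB1, the neighbours HSCB (-0.01) and DAK (-0.03) had edgeR adjusted p of 0.942 and 0.75. TMEM167A beside XRCC4 (0.05), DESI1 beside XRCC6 (-0.10) and ZFYVE21 beside XRCC3 (0.10) did not pass either (edgeR adjusted p 0.111 to 0.519). Beside repair genes that did not pass, 2 neighbours were called, each on the same side of 0 as its repair gene. NDUFAF2, 135 bases from ERCC8 (0.15), was 1.31-fold higher (edgeR adjusted p 5.08e-05). TOE1, 50 bases from MUTYH (-0.08), was 1.12-fold lower (edgeR adjusted p 0.0423), a call that held under 6 of the 14 alternatives. The difference between a gene and its neighbour was not tested.

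**Figure D5:**
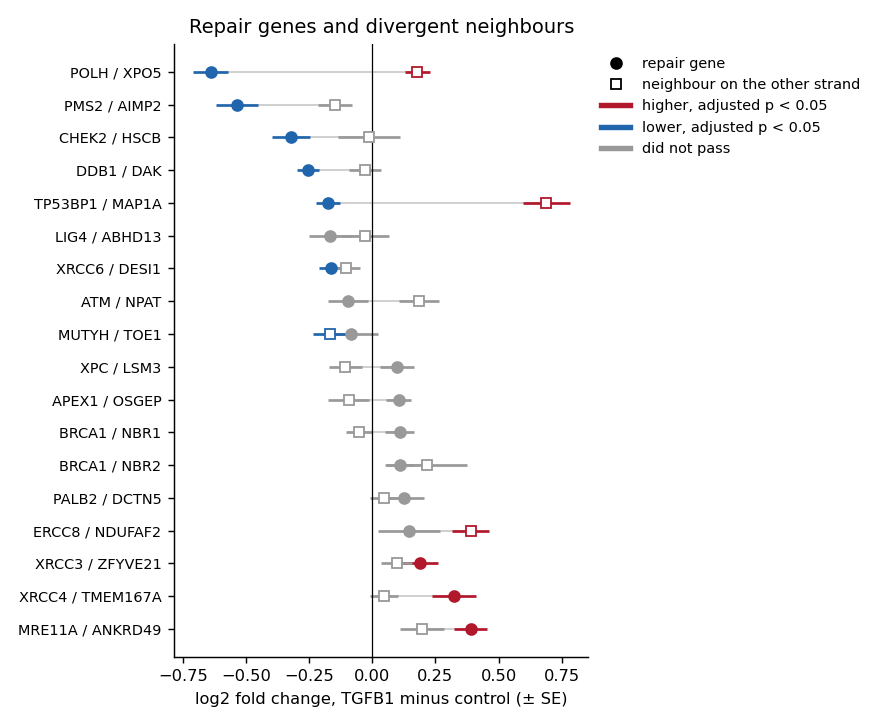
Fitted log2 fold change (TGFB1 minus Control, ± SE) of repair genes and of the neighbour that starts within 1000 bases on the opposite strand. POLH at -0.64 and XPO5 at 0.18, and TP53BP1 at -0.17 and MAP1A at 0.69, lie on opposite sides of 0, with every 1 of these 4 past the test.

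Genes of cell proliferation are given beside these results, since many repair genes are known to vary over the cell cycle. Of 24 such genes 4 were higher and 11 lower, with a median log2 fold change of -0.07. That is 16.7% higher and 45.8% lower, beside 23.4% and 23.9% of all tested genes. The G1/S cyclin CCNE1 was 1.61-fold higher (26.6 ± 1.94 against 42.9 ± 0.812 CPM, edgeR adjusted p 4.03e-09). The mitotic kinase AURKA was 1.46-fold lower (307 ± 8.82 against 209 ± 4.63 CPM, edgeR adjusted p 6.46e-11) and the proliferation marker MKI67 1.40-fold lower (705 ± 43.0 against 505 ± 59.3 CPM, edgeR adjusted p 2.56e-05). Summed over the 24 genes, levels were 6272 to 6389 CPM in Control and 5537 to 5643 in TGFB1. The part of these changes in the repair genes was not tested. Over all routes 82 of 86 companion genes were tested, of which 20 were higher and 16 lower. That is 43.9% called, beside 47.4% of the members and 47.3% of all tested genes. By route the share of companions called ran from 20% in damage signalling to 66.7% in mismatch repair.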

How the data were processed

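RNA sequencing covered 6 SW480 libraries. The authors deposited whole-number read counts per gene symbol, 1 table a library; the submitters' processing notes list HTSeq, TopHat and TopHat2 2.0.11, and GRCh37 (hg19), without their roles. The annotation, the strandedness and how reads were filtered were not given in the sources used here. Reads of no feature (5.44% to 5.98%), ambiguous reads (9.01% to 9.43%) and reads not uniquely aligned (12.0% to 12.5%) stayed out of library sizes and tests. Genes were filtered with filterByExpr (minimum count 10, minimum total 15), scaled by TMM and tested over all 14897 genes with edgeR 4.0.16 (robust quasi-likelihood, limma 3.58.1, R 4.3.3), TGFB1 minus Control, with Benjamini-Hochberg adjustment and a threshold of 0.05. CPM values are on the TMM-scaled library size, and CPM per kilobase uses the longest GENCODE transcript. Alternatives were DESeq2 (1.42.0), limma-voom, other scalings and filters, a replicate block, a fit without robust estimation and leaving out each library. Members, companion lists and marker lists (epithelial, intestinal, fibroblast, immune, endothelial, proliferation) were chosen with earlier results of these data known. Within a route, values by library are given for up to 4 called members of largest change and for the most abundant per length; named besides are up to 2 called companions a route, tested divergent neighbours of those members, 3 proliferation genes and TGF-β1 targets, of which 1 is not reported here. Further companions in nucleotide excision and crosslink repair, the neighbours NDUFAF2 and TOE1, and values by library of XRCC1 and ATM were added after their values were seen. Promoter windows and starts are from RefSeq GRCh38.p14, and exon overlaps from GENCODE, matched by symbol; gene coordinates were not used for counting.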

Additional observations from a re-analysis of the deposited data

How the results depend on the processing

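Between the 14 alternatives no member called in the reported fit changed direction. Scaling by library size alone moved the median of all genes by 0.057. It gave 15 members higher and 9 lower, 2 lower Fanconi members and a members' median of -0.0276. Of the 27 calls 19 remained and 5 were added. The members' median less that of all genes stayed at -0.085, a difference that a shift of all genes nearly alike could hardly move. Leaving out 1 library gave 6 to 10 members higher (6 without Control 3, TGFB1 1 or TGFB1 2), 14 to 17 lower, 3 to 5 lower Fanconi members and a median of -0.0934 to -0.0537. DESeq2 called 7 higher and 16 lower, limma-voom 9 and 18, no filter on low counts 8 and 17, a mean of at least 1 CPM 10 and 17, no robust estimation 9 and 17, and DESeq2 size factors 10 and 17. With the replicate number as a block 8 were higher and 17 lower, and 25 of the 27 calls remained, ERCC3 and XRCC3 being lost. The deviations of same-numbered libraries correlated at 0.031, -0.107 and -0.048, and those of differently numbered ones at -0.093 to 0.138. These values show no pairing by number, but with 3 libraries a group they cannot exclude it. Of the 27 calls 13 held under all 14 alternatives and 13 ended without at least 1 library. The cause of the other moves was not tested, and leaving out a library also leaves fewer libraries to test. Genes whose exons overlap others, or that have close copies, depend on the unstated strand and multi-mapping settings.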
